A study of Mus musculus with 41 samples.

Results

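A pair of lines of E14 mouse embryonic stem cells depleted of the same gene, Esrrb, was compared at the last time of the study. The labels call the lines KO2 and KO3, give both the genotype "genetically depleted for Esrrb", and do not say which part of the gene was removed. Each is 1 line, so a difference between them is a difference between 2 lines and not between genotypes, and whether either is a single clone is not stated. All 6 libraries of the 2 lines at AloXR day 5 were taken, 2 of KO3 and 4 of KO2, of 41 libraries in all.

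The study followed the passage of naive cells towards formative pluripotency. Cells that carried Esrrb (WT) and both depleted lines were sampled in 2iL, which is N2B27 medium with the GSK3 inhibitor CHIR99021, the MEK inhibitor PD0325901 and LIF. They were sampled again after 1 day in N2B27 on fibronectin followed by 1, 3 or 5 days in AloXR, which is N2B27 with activin A, XAV (a tankyrase inhibitor) and a compound the labels write as BMS439. The 4 WT libraries of AloXR day 5 had the same treatment and are given beside the depleted lines, to show on which side each line stood.

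The product of Esrrb is an estrogen-related nuclear receptor with no known hormone; it helps to hold mouse embryonic stem cells in the naive state and is switched off when they leave it. Primitive endoderm is the other cell type that forms beside the epiblast in the blastocyst. Its cells express the transcription factors GATA6, GATA4 and SOX17, take up nutrients through megalin and cubilin, and lay down a basement membrane of laminin and type IV collagen, and cultures of embryonic stem cells can hold or give rise to cells of this kind. Cholesterol is made from acetyl-CoA by a chain of enzymes whose genes share one regulator, the transcription factor SREBP2, which works together with NF-Y, a factor that binds CCAAT boxes.

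The 4 promoters shown here belong to cholesterol genes with some of the largest differences between the lines, and they are printed because the members of that pathway differed together, as described further on. Each run holds the 250 bases before the RefSeq start of the gene in GRCm38.p6, read 5′ to 3′ on the strand of the gene. Capitals mark ATTGG or its reverse complement CCAAT, the core of the CCAAT box, and TCACCCCAC, a match to TCACNCCAC, 1 form of the sterol regulatory element.
Hmgcs1 (chr13:119690101-119690350, plus strand): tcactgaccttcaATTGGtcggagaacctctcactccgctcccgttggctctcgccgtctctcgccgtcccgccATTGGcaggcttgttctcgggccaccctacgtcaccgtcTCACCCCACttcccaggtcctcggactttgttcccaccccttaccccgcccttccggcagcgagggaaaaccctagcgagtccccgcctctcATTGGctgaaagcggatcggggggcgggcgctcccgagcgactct
Msmo1 (chr8:64733579-64733828, minus strand): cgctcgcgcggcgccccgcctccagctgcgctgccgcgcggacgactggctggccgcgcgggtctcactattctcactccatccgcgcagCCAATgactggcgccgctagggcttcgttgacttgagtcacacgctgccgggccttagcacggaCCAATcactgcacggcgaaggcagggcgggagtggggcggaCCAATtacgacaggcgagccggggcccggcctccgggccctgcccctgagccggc
Mvd (chr8:122443423-122443672, minus strand): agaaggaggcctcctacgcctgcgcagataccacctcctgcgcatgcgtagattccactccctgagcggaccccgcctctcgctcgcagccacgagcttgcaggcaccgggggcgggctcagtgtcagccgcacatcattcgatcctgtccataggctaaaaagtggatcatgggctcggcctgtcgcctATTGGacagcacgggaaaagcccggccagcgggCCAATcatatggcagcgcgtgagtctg
Hsd17b7 (chr1:169969206-169969455, minus strand): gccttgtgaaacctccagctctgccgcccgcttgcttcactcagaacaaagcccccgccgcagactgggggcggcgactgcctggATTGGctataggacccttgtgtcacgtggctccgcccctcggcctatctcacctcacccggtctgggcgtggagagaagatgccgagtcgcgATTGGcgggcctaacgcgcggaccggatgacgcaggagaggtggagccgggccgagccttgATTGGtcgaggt

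The 6 libraries held 4140203 to 5644444 assigned reads, so that a count of 0 allowed up to 0.531 to 0.725 CPM (3 reads, counting error only). KO2 library 1 stood apart from the other 3 KO2 libraries: its counts differed from theirs with a chi-square per degree of freedom of 6.86 to 18, against 2.86 to 6.30 among the other 3 and 2.87 between the KO3 libraries. In many genes KO2 libraries 1 and 2 lay on one side and libraries 3 and 4 on the other, and the values per library show this where it occurs. Mitochondrial transcripts took 3.31% and 3.43% of the reads in KO3 and 2.83% ± 0.13 (SD, n = 4) in KO2, and cytosolic ribosomal protein genes took 8.28% and 9.09% in KO3 and 10.8% ± 0.74 (SD, n = 4) in KO2. More genes were detected in KO3 (19410 and 19415) than in KO2 (18264 to 18938). None of these ranges overlapped, but 2 against 4 libraries cannot go below p = 0.067 in an exact two-sided permutation test, which each of the 3 measures gave, and their part in the results was not tested.

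Esrrb itself was near the limit of detection by day 5. Its level was 0.46, 0.24, 0 and 0.89 CPM in the KO2 libraries, 1.69 and 0 CPM in the KO3 libraries and 0 to 0.99 CPM in WT. The groups overlapped (log2 difference 0.27 ± 0.33, exact two-sided permutation p = 0.73). The tag lies near the 3′ end and may be outside the part removed, so these reads do not check the depletion. Before the change of medium Esrrb stood at 375 CPM in WT, 54.6 CPM in KO2 and 135 CPM in KO3 (means of 3 libraries each), so that transcripts of the gene were counted in both depleted lines. At AloXR day 1, KO3 (33.8 CPM) stood above both KO2 (3.46 CPM) and WT (15.1 CPM). The core pluripotency genes Pou5f1 and Sox2 and the formative gene Otx2 were counted in all 6 libraries and are given further on. The related receptor gene Esrra did not pass the test at day 5 (4.55, 8.99, 8.24 and 7.09 CPM in KO2, 6.28 and 7.47 CPM in KO3).

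At day 5 the lines differed in 2389 of 16967 genes tested (14.1%), at an adjusted p under 0.05 and a difference of at least 1.5-fold (adjusted p from limma on log2(CPM + 1), Benjamini-Hochberg over all genes). Differences are given on that log2 scale with the standard error of the fit, folds are ratios of mean CPM, and "called" means past both thresholds. Of these, 1531 were higher in KO3 (9.02% of the genes tested) and 858 were lower (5.06%). The balance between the directions depended on the scaling: 64.1% of the calls were higher in KO3 with the CPM as deposited and 51.3% after quantile normalization (1204 higher, 7.10%, and 1143 lower, 6.74%; 13.8% together), while the median difference of all genes moved from 0.05 to -0.01. In edgeR's quasi-likelihood test on the recovered reads 1189 genes were higher (7.01%) and 858 lower (5.06%; 12.1% together), in DESeq2 1125 were higher (7.34%) and 908 lower (5.93%; 13.3% together), and 1930 genes were called in the same direction by limma and edgeR. The 2 KO3 libraries both lay above all 4 KO2 libraries in 23.3% of all genes and below all of them in 16.3% (39.6% together), so that a lack of overlap alone was common. Both KO3 libraries exceeded every WT library in 1213 of the 1531 higher genes (79.2%), beside 27.3% of all genes, and lay under every WT library in 646 of the 858 lower genes (75.3%), beside 26.1%. Leaving out a KO3 library lowered the number of calls to 1083 (without library 1) or 1286 (without library 2), where the lone library is assumed to vary like the other groups.

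Of 36 gene lists, primitive endoderm and cholesterol biosynthesis held the greatest shares of members that were higher in KO3 (17 of 21 and 18 of 23 measured), beside 9.02% of all genes. Trophoblast (10 of 22), epithelial adhesion (8 of 18) and primordial germ cell genes (5 of 12) followed. Interferon and antigen presentation had the greatest share of lower members, 5 of 17, beside 5.06% of all genes. The shares of all genes, 9.02% higher and 5.06% lower, stand beside every list count of day 5 that follows for all libraries and chromosomes. They do not belong to counts from other settings. Leaving out a KO3 library lowered the calls over all genes too, as given above, and list counts from those fits have to be read against that.

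**Figure D1:**
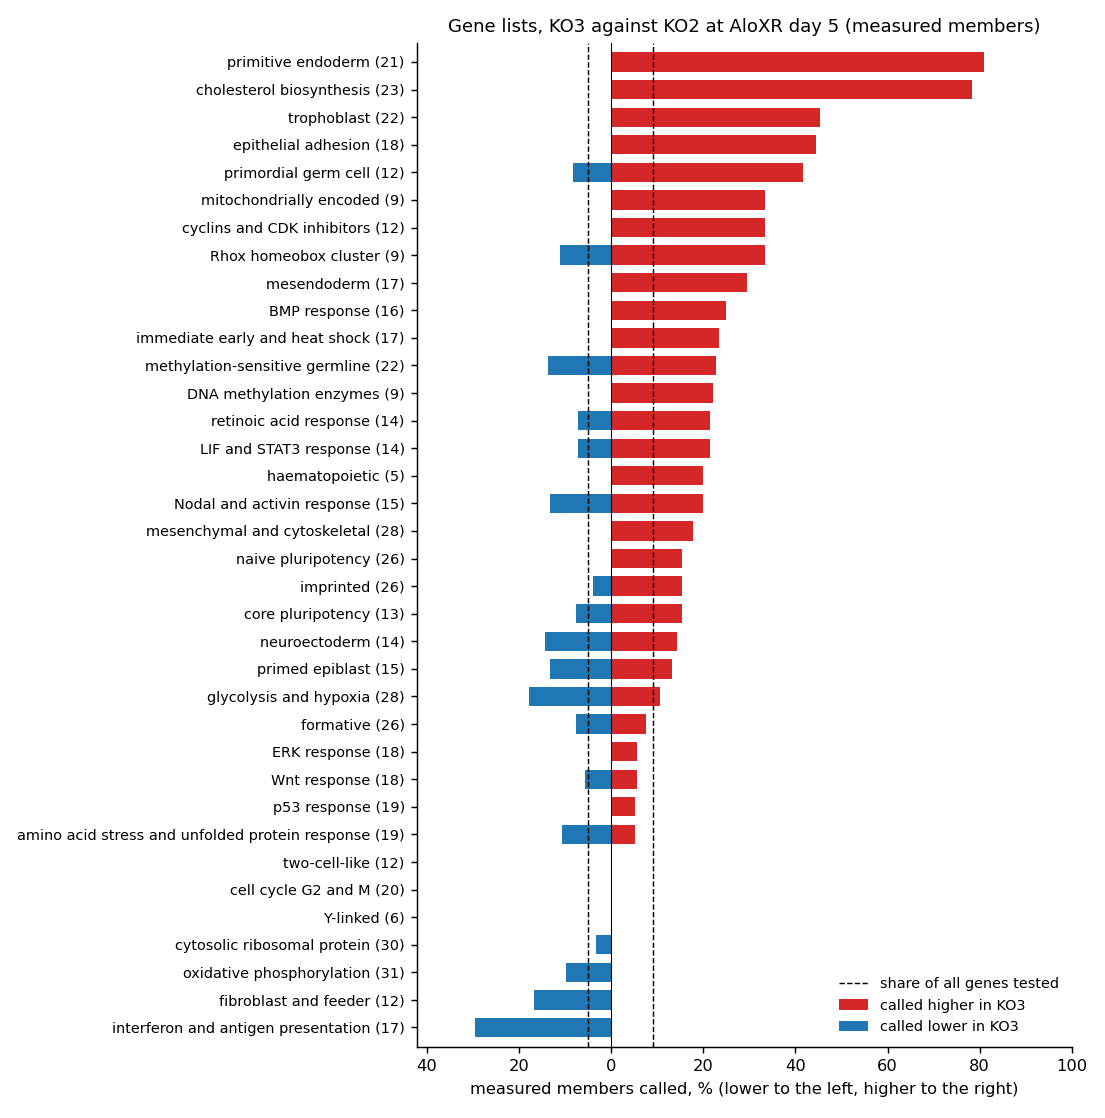
Share of the measured members of each gene list that were called higher (right, red) or lower (left, blue) in KO3 than in KO2 at AloXR day 5, with the number measured in brackets. Dashed lines mark the shares among all genes tested (9.02% higher, 5.06% lower); primitive endoderm and cholesterol biosynthesis reach furthest to the right.

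The primitive endoderm regulators Gata6, Sox17 and Gata4 were expressed in KO3 and were close to the detection limit in KO2. Gata6, which starts the primitive endoderm programme, stood at 0.46, 0.24, 0.22 and 0.71 CPM in the KO2 libraries and at 13.04 and 15.8 CPM in the KO3 libraries (log2 difference 3.47 ± 0.42, adjusted p = 7.4e-08). Every KO2 library was within the range of WT (0.22 to 1.09 CPM), and both KO3 libraries were far above it. Sox17, a partner of the GATA factors in this lineage, had 3 reads over the 4 KO2 libraries (0, 0, 0.45 and 0.18 CPM) and stood at 9.9 and 6.34 CPM in KO3, a ratio of 50.4 (95% counting interval 16.5 to 250.4). Gata4 followed at a lower level, with 0, 0, 0.22 and 0.53 CPM in KO2 and 4.35 and 2.72 CPM in KO3 (log2 difference 1.93 ± 0.31). For none of these 3 genes did the lines overlap. In bulk RNA more cells of a type and more RNA per cell cannot be told apart, here and in the results that follow. Foxq1, a forkhead factor, was at 1.37, 1.18, 0.67 and 1.42 CPM in KO2 and 17.4 and 14.5 CPM in KO3 (log2 difference 2.98 ± 0.40). Foxa2, the forkhead factor of visceral endoderm, split the KO2 line itself, with 0.23, 0.71, 4.45 and 4.25 CPM, against 5.8 and 9.74 CPM in KO3. KO2 libraries 3 and 4 thus came close to KO3, and the call (log2 difference 1.62 ± 0.52, adjusted p = 0.026) was lost in edgeR (adjusted p = 0.075) and in DESeq2 (adjusted p = 0.097). Cubn, a member described next, was lost in both tools too (adjusted p = 0.073 in edgeR). Hnf4a, a later visceral endoderm regulator, had no read in KO2 and stood at 0.48 and 0.68 CPM in KO3, at least 3.65-fold higher against a floor of 3 reads over the 4 KO2 libraries. It did not pass the test in limma and did in edgeR and DESeq2 (adjusted p = 0.029 and 0.039).

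Genes of the basement membrane were higher in KO3 as well. Lama1, the alpha chain of laminin-111, was at 1.14, 0.95, 1.11 and 0.18 CPM in KO2 and 33.8 and 25.6 CPM in KO3, a log2 difference of 4.08 ± 0.37 (adjusted p = 3.3e-11) and a 35.2-fold ratio of the means. Col4a1, which lies beside Col4a2 and encodes the other chain of the common type IV collagen, was at 36.4, 38.1, 53.4 and 49.8 CPM in KO2 and 339 and 269 CPM in KO3 (log2 difference 2.76 ± 0.20). Col4a2 was at 11.6, 11.1, 12.5 and 7.44 CPM in KO2 and 82.6 and 77 CPM in KO3 (log2 difference 2.81 ± 0.29). In all 3 genes each KO3 library was several times above the highest KO2 library, and WT (0.44 to 2.27 CPM for Lama1 and 30.7 to 36.2 CPM for Col4a1) was near KO2. The beta and gamma chains Lamb1 and Lamc1, which epiblast cells also make, differed less: Lamb1 was at 181, 195, 189 and 185 CPM in KO2 and 334 and 304 CPM in KO3 (1.7-fold), and Lamc1 was 1.91-fold higher in KO3. Sparc, a matricellular protein made in bulk by parietal endoderm, was at 469, 542, 541 and 614 CPM in KO2 and 850.4 and 818 CPM in KO3 (1.54-fold).

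Surface and secreted products of endoderm were higher in KO3 too, most of them at low levels. Dab2, the endocytic adaptor of this lineage, was at 8.88, 5.44, 5.34 and 8.15 CPM in KO2 and 24.4 and 21.97 CPM in KO3 (3.33-fold). Lrp2 (megalin) was at 54.9, 55.4, 36.5 and 37.03 CPM in KO2 and 76.1 and 72.7 CPM in KO3, within the WT range of 56.5 to 94.5 CPM, so here KO2 libraries 3 and 4 were the low ones. Its partner Cubn (cubilin) was at 0.23, 0.24, 0 and 1.06 CPM in KO2 and 1.93 and 2.72 CPM in KO3. Pdgfra, an early surface marker, was at 0.68, 0.47, 0 and 0.18 CPM in KO2 and 2.42 and 1.81 CPM in KO3. Srgn, the proteoglycan serglycin, had 1 read in KO2 (0, 0, 0 and 0.18 CPM) and stood at 12.1 and 8.61 CPM in KO3, a ratio of 193 (95% counting interval 33.7 to 7704). Ttr (transthyretin), a visceral endoderm product, had 1 read in KO2 and 0.97 and 2.04 CPM in KO3, a ratio of 28.5 (95% counting interval 4.28 to 1211). The visceral endoderm genes Afp (0, 0, 0 and 0.35 CPM in KO2 and 0 and 0.45 CPM in KO3) and Amn (2.05, 0.47, 1.34 and 0.89 CPM in KO2 and 0.48 and 0.23 CPM in KO3) did not pass the test, nor did P4ha2 (5.69, 7.33, 9.35 and 9.21 CPM in KO2 and 11.6 and 8.61 CPM in KO3), and each overlapped KO2. Sox7, the 1 list member below the expression filter, was counted only in KO3 library 1, at 1.93 CPM.

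Summed over the list, primitive endoderm genes gave 860 to 959 CPM in KO2, 775 to 955 CPM in WT, and 1943 and 1756 CPM in KO3. The median difference of the 21 measured members was 1.31, beside 0.05 over all genes, and 20 of 21 differences were positive. On the 6 chromosomes described near the end 8 of 9 members were called (median 1.62), and on the others 9 of 12 (median 1.23). Of all genes tested, 800 of 5748 were called higher on those 6 and 726 of 11172 on the other autosomes and X. Leaving out KO3 library 1 ended the calls of Cubn, Dab2, Foxa2, Lamb1, Lamc1, Lrp2 and Pdgfra (adjusted p = 0.068 to 0.17), and leaving out library 2 those of Cubn, Dab2, Foxa2, Lamb1, Lrp2, Pdgfra and Ttr (0.058 to 0.25), which left 10 called members each time. Without a KO2 library Foxa2 (library 1 or 2; adjusted p = 0.095 and 0.076), Sparc (library 1; difference 0.56, and 0.58 in DESeq2) or Lrp2 (library 3 or 4; adjusted p = 0.074 and 0.069) was lost.

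**Figure D2:**
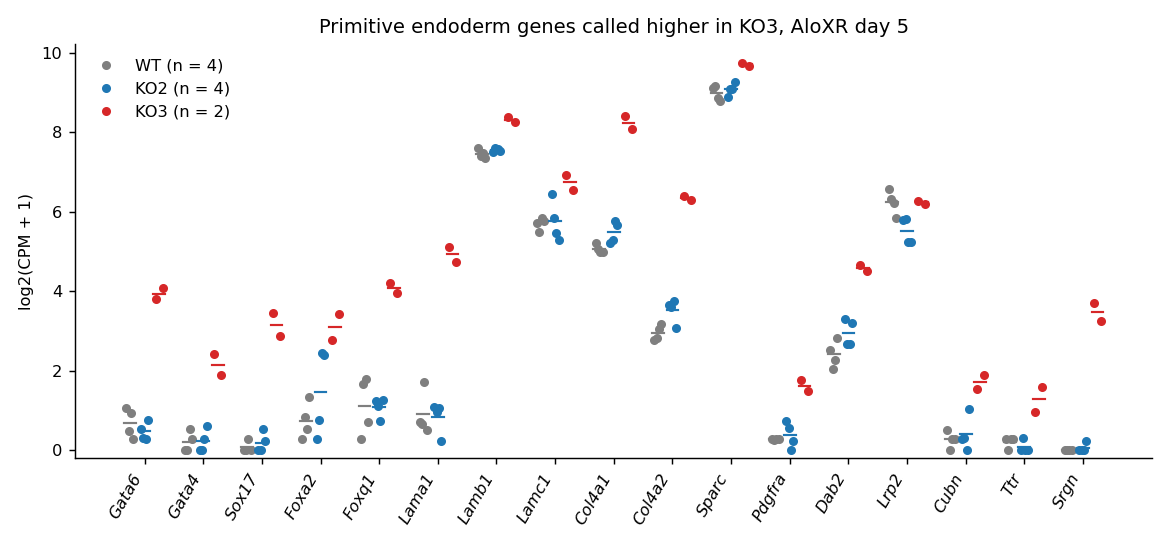
Level of the 17 primitive endoderm genes called higher in KO3, as log2(CPM + 1), in each library of AloXR day 5 (WT grey, KO2 blue, KO3 red), with short lines at the means. Gata6, Sox17, Lama1, Col4a1 and Srgn separate KO3 from every other library, while Foxa2 and Lrp2 do not separate it clearly.

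In 2iL these genes went both ways: 2 of 21 were called higher in KO3 (beside 2.50% of all genes) and 2 lower (4.74%). Gata6 then stood at 1.26 to 4.96 CPM in KO2 and 1.4 to 3.56 CPM in KO3, and the median difference of the list was -0.03. In KO2 and WT the mean of Gata6 at day 1 was 0.89 and 0.49 CPM (4 libraries each). In KO3 the mean was 5.6 CPM at day 1, 8.35 CPM at day 3 and 14.4 CPM at day 5. The list median was 0.75 at day 1 (11 of 21 called higher, beside 8.19% of all genes) and 0.93 at day 3 (10 called higher, beside 5.58%). Tested as a difference of differences, 12 of 21 members differed more between the lines at day 5 than in 2iL (beside 5.50% of all genes), 8 of 21 more than at day 1 (2.02%) and 0 of 21 more than at day 3 (0.124%; 4 at an unadjusted p under 0.05, and 0 in edgeR). In edgeR 10 members differed by another amount than in 2iL and 3 than at day 1. These tests and the day 5 comparison share the day 5 libraries. The mean of Lama1 in KO3 went from 2.96 CPM in 2iL through 8.63 and 20.8 CPM to 29.7 CPM, while WT had 45.7 CPM in 2iL and 2.2 CPM 1 day into AloXR. The change of the line difference since 2iL was 4.12 for Lama1 (adjusted p = 2.2e-07), 3.33 for Gata6 and 2.68 for Col4a1.

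**Figure D3:**
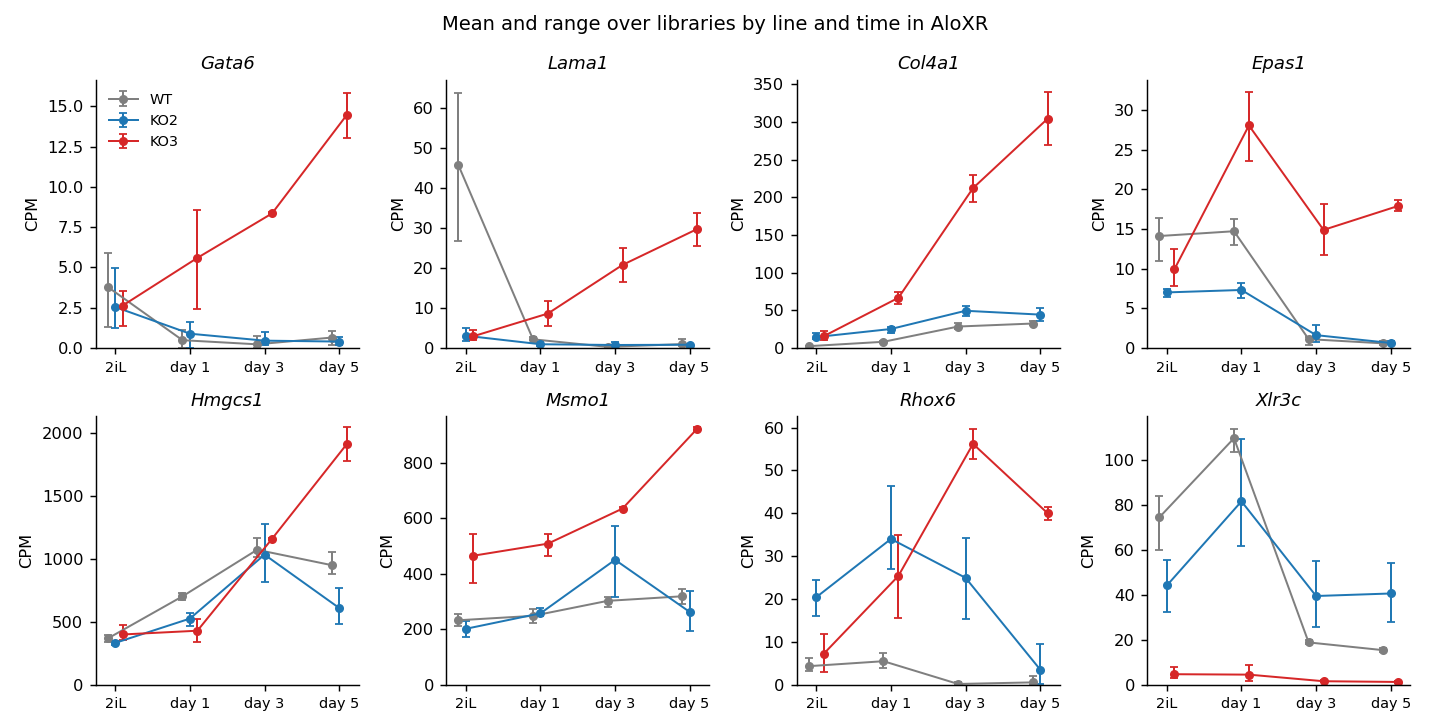
Mean CPM of 8 genes in WT (grey), KO2 (blue) and KO3 (red) in 2iL and after 1, 3 and 5 days in AloXR, with bars from the lowest to the highest library (2 to 4 libraries each; axes start at 0). Gata6, Lama1 and Col4a1 part after 2iL, Hmgcs1 and Msmo1 part further at day 5, and Xlr3c is low in KO3 throughout.

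Several of the largest rises in KO3 outside the list were in genes of other tissues. Pga5, a pepsinogen gene, had no read in the KO2 or WT libraries and stood at 14.98 and 16.5 CPM in KO3, at least 98.6-fold higher than in KO2 (floor of 3 reads over the 4 libraries). Epas1, the hypoxia-inducible factor HIF-2 alpha, was at 0.68, 0.47, 0.89 and 0.53 CPM in KO2 and 18.6 and 17.2 CPM in KO3 (log2 difference 3.53 ± 0.26, adjusted p = 1.9e-13). The lines did not overlap in either gene, and WT (0.40 to 0.91 CPM for Epas1) was with KO2. In 2iL Epas1 had been at 14.1 CPM in WT and 7.02 CPM in KO2 on average, and 9.91 CPM in KO3. Adamts9, a secreted metalloproteinase, was at 1.59, 0.71, 2.45 and 2.66 CPM in KO2 and 25.1 and 21.5 CPM in KO3. Tmem140 and Glipr1 were 20.95-fold and 22.2-fold higher in KO3 (log2 differences 3.10 ± 0.29 and 3.12 ± 0.30). Pcdh17, a protocadherin, was at 0.46, 0.47, 4.45 and 4.96 CPM in KO2 and 32.4 and 26.04 CPM in KO3. It lies in a stretch of chromosome 14, described near the end, that was low in KO2, and had the largest difference there (3.38). Sct, the hormone secretin, was at 7.51, 4.73, 0.22 and 1.77 CPM in KO2 and 35.5 and 36.2 CPM in KO3. In these 2 genes the KO2 libraries divided in opposite ways, libraries 3 and 4 being the higher ones for Pcdh17 and the lower ones for Sct.

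The largest falls were led by genes of the X-linked Xlr family, whose members are expressed in lymphoid and germ cells. Xlr3c was at 27.8, 27.9, 52.5 and 54.04 CPM in KO2, 14.5 to 16.4 CPM in WT and 0.72 and 1.81 CPM in KO3 (log2 difference -4.17 ± 0.35, adjusted p = 1.5e-10). Xlr4b was at 20.04, 21.3, 28.5 and 23.6 CPM in KO2 and 1.69 and 2.04 CPM in KO3. KO3 was below WT (4.36 to 5.75 CPM for Xlr4b) as well as below KO2, and in Xlr3c KO3 was the low line in 2iL too (log2 difference -3.04). In the family, a set chosen after its values were seen, 6 of 9 measured genes were lower. Their 3′ ends share sequence (60.2% of the 50-base windows near the 3′ end of Xlr3c and 77% for Xlr4b occur in other genes), so the split of reads between members is uncertain.

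Pla2g1b, a secreted phospholipase, was at 14.8, 22, 23.4 and 20.9 CPM in KO2 and 0.72 and 0.91 CPM in KO3 (24.9-fold lower). Plac8 was at 28.9, 46.4, 45.9 and 53.5 CPM in KO2 and 3.62 and 4.3 CPM in KO3 (11.02-fold lower). In both genes KO2 was high against WT as well, which had 3.18 to 4.36 CPM of Pla2g1b and 2.18 to 4.09 CPM of Plac8. Ms4a4d had 3 reads in KO3 and 7.97 to 12.5 CPM in KO2, a ratio of 30.1 (95% counting interval 10.2 to 147), and Tmsb15a had 2 reads in KO3, a ratio of 32.4 (95% counting interval 8.8 to 270.1). Ptgis, the prostacyclin synthase, was 6.96-fold lower, with KO2 (17.2 to 30.8 CPM) overlapping WT (24.8 to 36.3 CPM). Ifi27l2a, an interferon-induced gene, was 7.58-fold lower, and there too KO2 (13.7 to 17.99 CPM) overlapped WT (13.3 to 24 CPM). Nlrp4c (12.6-fold), Tcp11x2 (12.9-fold), Nxf3 (5.94-fold) and the cardiac myosin gene Myh6 (8.89-fold) completed the 12 largest falls. For Myh6, 19.9% of the 50-base windows near the 3′ end occur in another gene.

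Cholesterol synthesis differed along most of its length, and all 23 measured genes had a positive difference, Idi1 only without quantile normalization (-0.01 with it) and with KO3 library 1 (-0.01 without it). Of the 23 members 18 were called higher and 0 lower, with a median difference of 0.89. Both KO3 libraries were above all KO2 libraries in 22 of the 23, beside 23.3% of all genes. Hmgcs1, the HMG-CoA synthase at the head of the pathway, was at 510.3, 485, 678 and 764 CPM in KO2 and 1773 and 2042 CPM in KO3 (log2 difference 1.67 ± 0.16, adjusted p = 7.2e-10). WT stood between the lines (881 to 1054 CPM), above KO2 and below KO3.

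The mevalonate kinases and decarboxylase followed. Mvk (mevalonate kinase) was at 27.6, 27.4, 36.3 and 36.9 CPM in KO2 and 72.2 and 78.1 CPM in KO3. Pmvk was at 46.9, 55.8, 82.6 and 88.05 CPM in KO2 and 128 and 115 CPM in KO3, and Mvd at 103, 66.95, 108 and 113 CPM in KO2 and 333 and 334 CPM in KO3. Mvd was the most different of the 3 (log2 difference 1.79 ± 0.23), and its WT level (92.96 to 118 CPM) was that of KO2. The isomerase Idi1 overlapped, at 1.14, 2.13, 1.34 and 1.95 CPM in KO2 and 2.17 and 1.59 CPM in KO3, with 47.7% of its windows shared. Farnesyl diphosphate synthase (Fdps) was 2.27-fold higher, but 63.3% of the 50-base windows near its 3′ end occur in other genes, and its level is uncertain.

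Squalene is made and closed to the first sterol by Fdft1, Sqle and Lss, and these 3 had the lowest ratios among the enzymes called. Fdft1 was at 35.3, 34.1, 48.1 and 41.5 CPM in KO2 and 55.8 and 73.6 CPM in KO3 (1.63-fold), with 22.6% of its windows shared. Sqle was 1.61-fold and Lss 1.46-fold higher, and the call of Lss (difference 0.60 ± 0.20, adjusted p = 0.027) was lost in edgeR (difference 0.52) and DESeq2 (0.51). Of the later enzymes, which trim lanosterol to cholesterol, the sterol methyl oxidase Msmo1 differed most of the whole list, at 213, 194, 305 and 338 CPM in KO2 and 916 and 929 CPM in KO3 (log2 difference 1.85 ± 0.18, adjusted p = 7.2e-10). WT (292 to 345 CPM) was with the higher KO2 libraries, and both KO3 libraries were far above all of these. Hsd17b7, which acts with Msmo1 in removing the methyl groups, was at 18.4, 23.7, 33.6 and 39.1 CPM in KO2 and 79.95 and 75.4 CPM in KO3. Cyp51, Nsdhl, Ebp and Sc5d were 1.87, 1.76, 1.84 and 1.93 times as high in KO3. Tm7sf2 (17.3, 22.9, 23.6 and 23.7 CPM in KO2, 33.3 and 27.4 CPM in KO3) and Dhcr7 (27.3, 39.3, 36.3 and 36.7 CPM in KO2, 45.4 and 41.2 CPM in KO3) did not pass the test.

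Genes that carry or sense cholesterol gave a mixed picture. Stard4, a sterol carrier, was at 106, 102, 158 and 165 CPM in KO2 and 247 and 229 CPM in KO3 (1.79-fold). The gene of the regulator itself, Srebf2, was at 133, 141, 128 and 141 CPM in KO2 and 201 and 169 CPM in KO3 and did not pass the test (adjusted p = 0.056), nor did its retention factor Insig1 (20.04, 25.3, 21.1 and 23.4 CPM in KO2 and 30.4 and 28.1 CPM in KO3).

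Within KO2 the pathway was lower in libraries 1 and 2 than in libraries 3 and 4: the summed level of the list was 2220, 2177, 3107 and 3347 CPM, against 6289 and 6467 CPM in KO3 and 3154 to 3671 CPM in WT. KO3 was above WT, KO2 libraries 1 and 2 were below it, and libraries 3 and 4 were near it. On the 6 chromosomes described near the end 6 of 7 members were called (median 1.46), and on the others 12 of 16 (median 0.87). The counts over all genes tested were 800 of 5748 higher on those 6 and 726 of 11172 on the other autosomes and X. Leaving out KO3 library 1 ended the calls of Ebp, Lss, Nsdhl, Pmvk, Sc5d and Sqle (adjusted p = 0.054 to 0.20). Without KO3 library 2 those of Fdft1 and Lss ended (0.15 and 0.11), and without KO2 library 1 or 2 that of Lss (0.13 and 0.074).

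**Figure D4:**
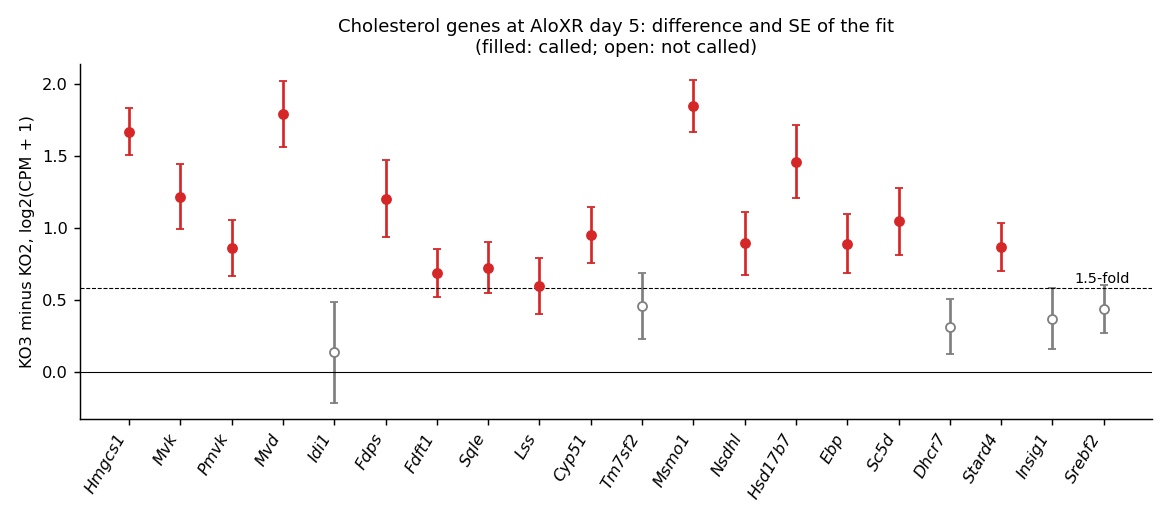
Difference between KO3 and KO2 at AloXR day 5 for 20 cholesterol genes, in log2(CPM + 1) with the standard error of the fit, in the order of the pathway from Hmgcs1 to Dhcr7 and then carrier and control genes. All 20 points lie above 0 (Idi1 at -0.01 after quantile normalization), and the 15 filled points passed the test.

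The difference in this pathway did not grow steadily with time. In 2iL 4 of 23 members were higher in KO3 (beside 2.50% of all genes), at day 1 13 were (8.19%), at day 3 0 were (5.58%), and the medians were 0.23, 0.66 and 0.19. At day 3, 3 members had an unadjusted p under 0.05 in limma. Hmgcs1 stood at 1033 CPM in KO2 and 1158 CPM in KO3 at day 3, and 2 days later the KO2 level was lower and the KO3 level higher. Msmo1 was higher in KO3 in 2iL too (465 CPM against 202 CPM). Against day 3, Hmgcs1 (change of the line difference 1.48, adjusted p = 0.002), Msmo1 (1.30) and Cyp51 (1.29) were called. These are 3 of the 23 members, beside 0.124% of all genes, and edgeR called 3 members as well. With only the depleted libraries fitted, 1 gene in all was called against day 3, so these calls did not all hold there.

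In the promoters printed above, ATTGG was found on either strand 3 times in Hmgcs1, Msmo1 and Hsd17b7 and 2 times in Mvd. All 16 list members with an entry in the promoter table held the motif, among them all 11 that were called, against 37.5% of 27025 genes in the table and 41.5% of the 6576 genes with at least 10 CPM. TCACNCCAC was found in 1 of the 16 (Hmgcs1), against 1.22% of all genes. A match of these letters describes the window and shows no binding.

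Trophoblast genes were the next group. Of 22 measured members 10 were higher in KO3 and 0 lower, with a median difference of 0.89. Tfap2c, a transcription factor shared by trophoblast and germ cells, was at 11.8, 4.73, 1.78 and 2.66 CPM in KO2 and 23.4 and 21.3 CPM in KO3. Here KO2 library 1 was the high one, and both KO3 libraries were above it. Krt7, a keratin of trophoblast, was at 3.42, 3.55, 2.23 and 2.83 CPM in KO2 and 17.9 and 12.7 CPM in KO3 (5.08-fold), and Krt19 at 29.6, 33.4, 35.6 and 49.6 CPM in KO2 and 82.1 and 80.6 CPM in KO3 (2.2-fold). Lgals3 (galectin-3) was 6.79-fold and Tead4, a factor at the head of the trophoblast programme, 3.39-fold higher. The defining regulator Cdx2 was under 0.5 CPM in all 6 libraries, and Eomes (6.6, 8.04, 19.8 and 21.6 CPM in KO2, 24.1 and 23.6 CPM in KO3) did not pass the test (adjusted p = 0.24). The list summed to 453 to 531 CPM in KO2, 858 and 836 CPM in KO3, and 360 to 382 CPM in WT. Without KO3 library 1, 6 members were called higher and 1 lower, and without library 2, 6 were called higher.

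Germ cell genes went both ways. On the primordial germ cell list 5 of 12 measured genes were higher and 1 lower, but 2 of the 5, Sox17 and Tfap2c, belong to the groups described above. Prdm1 (BLIMP1) was at 1.59, 1.42, 0.89 and 1.42 CPM in KO2 and 4.11 and 4.76 CPM in KO3, and Dazl was at 0.46, 0.47, 0 and 0.18 CPM in KO2 and 0.97 and 3.4 CPM in KO3. Dnd1 was lower in KO3, at 7.74, 4.97, 2.23 and 1.95 CPM in KO2 and 0.97 and 1.13 CPM in KO3. Among germline genes that depend on DNA methylation for silencing, 5 of 22 were higher and 3 lower, beside 9.02% and 5.06% of all genes. Sycp3, a protein of the meiotic chromosome axis, was at 32.8, 32.4, 17.4 and 22.1 CPM in KO2, 4.35 and 5.89 CPM in KO3 and 87.5 to 101 CPM in WT (log2 difference -2.12 ± 0.36). The order was WT above KO2 above KO3 with no overlap. Tdrkh, of the piRNA pathway, was 3.33-fold lower, and Rpl10l, a testis ribosomal protein, was at 0.91, 0.95, 0.67 and 0.89 CPM in KO2 and 4.11 and 3.85 CPM in KO3. The call of Dnd1 ended without KO3 library 1, KO3 library 2 or KO2 library 1, and that of Dazl without KO3 library 2 (adjusted p = 0.065 to 0.33). The number of germline genes called was 5 without KO3 library 1.

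The Rhox homeobox genes of the X chromosome, which serve reproductive tissues, were split. Rhox6 was at 9.56, 4.26, 0.22 and 0.18 CPM in KO2 and 41.5 and 38.5 CPM in KO3 (log2 difference 3.78 ± 0.59), and Rhox9 at 6.83, 1.18, 0 and 0.53 CPM in KO2 and 27.3 and 26.04 CPM in KO3 (log2 difference 3.61 ± 0.48). KO2 libraries 3 and 4 were near 0 and library 1 was the highest, and neither gene overlapped. In 2iL it was KO2 that had more Rhox6 (20.4 CPM against 7.25 CPM in KO3), and the change of the line difference was 5.30 (adjusted p = 7.7e-05), the largest among the genes named here. Rhox12 had 1 read in KO2 and 1.69 and 1.13 CPM in KO3, a ratio of 26.3 (95% counting interval 3.89 to 1124). Rhox13 was lower in KO3 (1.59, 2.6, 5.12 and 3.19 CPM in KO2, 0.72 and 1.36 CPM in KO3), and Rhox5, the most abundant, overlapped (24.4, 28.1, 37.2 and 30.5 CPM in KO2 and 39.4 and 35.3 CPM in KO3). Fitted on the 6 libraries alone, Rhox6 had an adjusted p of 0.052. The calls of Rhox12 and Rhox13 ended without KO3 library 1 (adjusted p = 0.057 to 0.22), which left 2 Rhox genes called, and without KO2 library 3 that of Rhox13 (0.062).

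Of the pluripotency genes, 4 of 26 naive, 4 of 26 formative and 3 of 13 core members were called, beside 14.1% of all genes. Of 26 naive genes 4 were higher and 0 lower, beside 9.02% higher and 5.06% lower of all genes. Klf4 was at 2.73, 1.42, 3.12 and 3.37 CPM in KO2 and 16.9 and 11.6 CPM in KO3 (log2 difference 2.07 ± 0.30), and Nr5a2, which endoderm also expresses, at 1.14, 0.24, 0.22 and 0.71 CPM in KO2 and 6.04 and 6.79 CPM in KO3 (log2 difference 2.27 ± 0.41). Tbx3 and Dppa4 were 9.31-fold and 1.71-fold higher. Nanog was at 56.9, 34.1, 38.5 and 33.7 CPM in KO2 and 30.2 and 27.4 CPM in KO3, below every KO2 library but not past the test (adjusted p = 0.12), which it passed relative to its neighbours on chromosome 6 (difference -0.60, adjusted p = 0.044). Klf5 (70.4, 94.9, 98.2 and 135 CPM in KO2 and 163 and 127 CPM in KO3) fell short of 1.5-fold, but not without KO2 library 4 or KO3 library 2 (difference 0.72 and 0.74). Zfp42 (2.42 and 3.17 CPM in KO3, 0.71 to 1.78 CPM in KO2) and Pou5f1 (19.8 and 15.4 CPM in KO3, 12.8 to 16.1 CPM in KO2) did not pass the test either.

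Of 26 formative genes 2 were higher and 2 lower, with a median difference of 0.07. Otx2 was at 137, 167, 239 and 204 CPM in KO2 and 211 and 209 CPM in KO3, Fgf5 at 94.04, 93.2, 113 and 119 CPM in KO2 and 117 and 124 CPM in KO3, and Pou3f1 at 268, 415, 513 and 545 CPM in KO2 and 514 and 524 CPM in KO3. These 3 markers of the formative state overlapped between the lines, and in each KO3 was with KO2 libraries 3 and 4. Dnmt3a, the methyltransferase, did not pass the test either (148 to 183 CPM in KO2, 147 and 133 CPM in KO3). The called members were Lef1 and Sall2 (1.62-fold and 1.57-fold higher) and Car14 and Zic5 (1.98-fold and 1.56-fold lower). Sox2 was at 42.1, 58.4, 117 and 102 CPM in KO2 and 143 and 147 CPM in KO3, and its call ended without any 1 of KO2 library 1 or 2 or either KO3 library (adjusted p = 0.053 to 0.12). On the core pluripotency list Esrp1 was also higher (1.61-fold). The calls of Car14, Dppa4, Esrp1, Lef1 and Sall2 ended without KO3 library 1 (adjusted p = 0.051 to 0.19), and without library 2 those of Esrp1, Lef1, Sall2 and Zic5 (0.065 to 0.14), so that 1 of the 26 formative genes was called each time. Without KO2 library 1 those of Lef1 and Sall2 ended, and without KO2 library 3 or 4 that of Zic5 (difference 0.54 and 0.58 in size).

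Tdgf1 (Cripto), the co-receptor of Nodal, was among the more abundant genes that were lower in KO3. It was at 66.5, 109, 159 and 186 CPM in KO2, 42.5 and 38.5 CPM in KO3 and 11.8 to 22.1 CPM in WT (log2 difference -1.56 ± 0.23, adjusted p = 1.2e-05). KO3 was below all KO2 and above all WT libraries. Lefty2, a Nodal target and inhibitor, was at 9.56, 15.1, 14.03 and 18.96 CPM in KO2 and 2.9 and 3.62 CPM in KO3, and Lefty1 (9.34, 13.5, 29.4 and 33.8 CPM in KO2 and 7.73 and 8.61 CPM in KO3) did not pass the test in limma or edgeR (adjusted p = 0.11 and 0.082) but passed in DESeq2 (0.028) and without KO2 library 1 (0.043). Near the 3′ end 21.7% of the windows of Lefty2 and 12.5% of those of Lefty1 occur in another gene, so the split of their reads is uncertain. Of 15 measured genes of the Nodal and activin list 3 were higher and 2 lower, and 1 and 3 without KO2 library 1. The call of Lefty2 ended without KO3 library 1, when 2 genes of the list were called, against 3 without library 2.

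Among BMP genes 4 of 16 were higher and 0 lower, beside 9.02% and 5.06% of all genes. The ligand gene Bmp2 was at 0.23, 1.42, 0.22 and 0.89 CPM in KO2 and 4.11 and 2.94 CPM in KO3, the target Msx1 at 0.46, 0.47, 1.78 and 4.43 CPM in KO2 and 5.31 and 7.25 CPM in KO3, and the inhibitor Smad7 at 12.1, 22.2, 35.2 and 41.3 CPM in KO2 and 57.97 and 46.4 CPM in KO3. In Msx1 and Smad7 the highest KO2 library, library 4, came near KO3. In the LIF and STAT3 list (3 higher and 1 lower of 14), the receptor gene Lifr was at 2.96, 4.97, 6.9 and 6.73 CPM in KO2 and 13.8 and 15.2 CPM in KO3, and the STAT3 target Pim1 was 2.55-fold lower. In the retinoic acid list (3 higher and 1 lower of 14), Cyp26b1, which degrades retinoic acid, was at 0, 0, 0.67 and 0.53 CPM in KO2 and 1.93 and 4.08 CPM in KO3, and the binding protein gene Crabp1 was 4.8-fold lower. In the ERK list 1 gene of 18 was called (Fosl1, 3.33-fold higher), and the Wnt list had Lef1 higher and Tcf7 lower (2.12-fold) of 18. The share called higher was 5.56% in each of these 2 lists, under the 9.02% of all genes. The share called lower in the Wnt list, 5.56%, was near the 5.06% of all genes. Wnt3, a ligand of the primitive streak, was 2.64-fold higher. Leaving out KO3 library 1 ended the calls of Bmp2, Crabp1, Fosl1, Lifr, Msx1, Pim1, Smad7 and Wnt3 (adjusted p = 0.060 to 0.22), without KO3 library 2 those of Lifr, Msx1 and Smad7 (0.070 to 0.14), and without KO2 library 1 those of Lifr and Smad7 (0.051 and 0.079). Fosl1 was lost in edgeR (0.065) and DESeq2 (0.081). The number of BMP genes called was 1 and 2 without KO3 libraries 1 and 2, and 1 gene each of the retinoic acid and LIF lists was called without KO3 library 1 (2 of the LIF list without KO2 library 1).

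Genes of antigen presentation were among the lower ones. Of 17 measured interferon and antigen presentation genes 5 were lower and 0 higher, with a median difference of -0.63. H2-K1, a classical class I heavy chain, was at 51.5, 69.5, 70.8 and 74.2 CPM in KO2, 26.3 and 19.9 CPM in KO3 and 55.7 to 67.6 CPM in WT (log2 difference -1.48 ± 0.25, adjusted p = 5.2e-05). H2-D1 was 1.89-fold lower. KO2 was like WT for both, and KO3 was the low line. The light chain gene B2m was at 157, 123, 124 and 119 CPM in KO2 and 94.9 and 73.6 CPM in KO3, below every KO2 library, and just missed the threshold in limma (adjusted p = 0.051) but not in edgeR (0.045) or DESeq2 (0.030). Psmb8, of the immunoproteasome, was at 5.69, 8.04, 13.6 and 12.4 CPM in KO2 and 4.11 and 4.76 CPM in KO3, and Isg15 at 2.96, 4.02, 6.01 and 7.09 CPM in KO2 and 1.69 and 1.59 CPM in KO3. For these 2 genes WT was lower still (0.22 to 1.14 CPM of Psmb8 and 0 to 0.44 CPM of Isg15). Ifit1 had no read in KO3 and was at least 3.04-fold lower there (floor of 3 reads over the 2 libraries). Near the 3′ end 14.1% of the windows of H2-K1 and 19.4% of those of H2-D1 are shared with other genes, and reads may be divided between H2 genes. Without KO3 library 1 the calls of H2-D1, Ifit1, Isg15 and Psmb8 ended (adjusted p = 0.10 to 0.21), without KO3 library 2 those of the last 3 (0.11 to 0.14), without KO2 library 3 those of Ifit1 and Psmb8 (0.11 and 0.095), and without KO2 library 4 that of Psmb8 (0.079). The number called was then 1, 2 and 3 without KO3 library 1, KO3 library 2 and KO2 library 3.

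Of 18 epithelial adhesion genes 8 were higher and 0 lower, and 5 were called once each gene was compared with its neighbours on the chromosome. Dsp (desmoplakin) was at 25.7, 11.1, 8.02 and 10.1 CPM in KO2 and 55.5 and 47.8 CPM in KO3, and KO2 library 1 was the only KO2 library near WT (17.9 to 29.4 CPM). Epcam was at 269.6, 198, 181 and 187 CPM in KO2 and 378 and 345 CPM in KO3, but it lies in a stretch of chromosome 17, described near the end, that was low in KO2, and relative to its neighbours the difference was 0.11. Of 28 mesenchymal and cytoskeletal genes 5 were higher, among them Anxa1 (1.14, 4.26, 4.45 and 4.07 CPM in KO2, 21.01 and 14.7 CPM in KO3), Anxa2 (1.98-fold), Snai2 (2.88-fold) and Thbs1 (2.96-fold). Vim was at 41.9, 85.6, 148 and 187 CPM in KO2 and 253 and 265 CPM in KO3. The spread within KO2 was large, and the call of Vim was lost in edgeR (adjusted p = 0.076) and DESeq2. Snai2 was lost in DESeq2 as well. Without KO3 library 1 the calls of Anxa2, Epcam, Snai2 and Vim ended, and without library 2 those of Epcam and Vim (adjusted p = 0.050 to 0.21). Epcam was also lost without KO2 library 2, 3 or 4 (0.056 to 0.069) and Vim without KO2 library 1 or 2. The number of epithelial genes called was 4, 2 and 5 without KO3 library 1, KO3 library 2 and KO2 library 3, and 2 mesenchymal genes were called without KO3 library 1.

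Nefm, a neurofilament gene of a stretch of chromosome 14, described near the end, that was low in KO2, was at 16.6, 22.9, 41.6 and 56.7 CPM in KO2, 199.99 and 188 CPM in KO3 and 69.3 to 83.1 CPM in WT (log2 difference 2.61 ± 0.29). The neural adhesion gene Ncam1 was 2.29-fold lower, and of 14 neuroectoderm genes 2 were higher and 2 lower (2 called in all without KO2 library 2 or 3 or KO3 library 1, and 1 without KO3 library 2).

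Markers of other cells that a culture could hold were looked at as well. Of 12 fibroblast and feeder genes 0 were higher and 2 lower: Thy1 (2.27-fold) and Pdgfrb (1 read in KO3, a ratio of 11.9 (95% counting interval 1.95 to 486)). The list summed to 83 to 99 CPM in KO2 and 76 and 75 CPM in KO3, and both calls ended without KO3 library 1, that of Pdgfrb also without library 2 and in DESeq2 (adjusted p = 0.086). Of 12 haematopoietic genes 5 passed the filter, and all 12 summed to 4 to 7 CPM in KO2 and 10 and 4 CPM in KO3. The 1 called, Tal1, was at 0, 0.24, 0.67 and 0.71 CPM in KO2 and 1.45 and 1.59 CPM in KO3 and was lost in edgeR and DESeq2 (adjusted p = 0.078 and 0.087) and without KO2 library 1 or 2 or either KO3 library. Of 12 measured genes of the 2-cell-like state 0 were called by limma, edgeR or DESeq2, and 0 had an unadjusted p under 0.05. They summed to 184 to 219 CPM in KO2 and 180 and 188 CPM in KO3. Zscan4 genes share sequence near the 3′ end (47.4% of the windows of Zscan4d and 62.9% of Zscan4c), so the split of reads between them is uncertain. These 12 genes had differed at the earlier times, in changing directions: in 2iL 10 were lower in KO3 (median -1.2, beside 4.74% of all genes), at day 1 8 were lower (median -0.72, beside 6.79%), and at day 3 4 were higher (median 0.50, beside 5.58%). Of 17 mesendoderm genes 5 were higher and 0 lower, 4 of them the endoderm factors Gata6, Sox17, Gata4 and Foxa2, with Wnt3 as the fifth. Leaving out KO3 library 1 made the number 3. The part of such cells in the other results was not tested.

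Of 12 measured cyclins and cyclin-dependent kinase inhibitors 4 were higher and 0 lower, beside 9.02% and 5.06% of all genes. On the 6 chromosomes described near the end 3 of 5 members were called higher (median 1.03), and on the others 1 of 7 (median -0.15). The counts over all genes tested were 800 of 5748 higher on those 6 and 726 of 11172 on the other autosomes and X. Of 20 genes of the G2 and M phases 0 were called in limma (1 at an unadjusted p under 0.05), and 1 in edgeR and in DESeq2. Cdkn1c (p57), an imprinted inhibitor, was at 5.01, 4.02, 0.89 and 1.95 CPM in KO2 and 22.7 and 21.97 CPM in KO3 (log2 difference 2.7 ± 0.33). Cdkn2a, which encodes p16 and p19ARF, was at 39.2, 39.5, 30.9 and 34.02 CPM in KO2 and 125 and 93.3 CPM in KO3 (log2 difference 1.57 ± 0.24), and its neighbour Cdkn2b was 2.2-fold higher. The call of Cdkn2b ended once each gene was compared with its neighbours on the chromosome. WT was below both lines for Cdkn2a (13.3 to 24.4 CPM). Ccnd2, cyclin D2, was at 44.6, 52.3, 56.5 and 62.01 CPM in KO2 and 172 and 169 CPM in KO3, with WT at 75.1 to 129 CPM. Kcnq1ot1, the noncoding RNA of the imprinted domain that holds Cdkn1c, was at 29.4, 43.1, 43.4 and 53.9 CPM in KO2 and 148 and 134 CPM in KO3. It is antisense to Kcnq1, and since the counting is not stated to use strand its reads are uncertain. Ndn was 2.14-fold lower, and H19 (291, 129, 71.2 and 67.8 CPM in KO2 and 263 and 249.8 CPM in KO3) and Peg10 (109, 138, 135 and 150.2 CPM in KO2 and 224 and 203 CPM in KO3) did not pass the test, except H19 without KO2 library 1 (adjusted p = 0.042) and Peg10 with the 6 libraries fitted alone (0.0058). Of 26 imprinted genes 4 were higher and 1 lower, beside 9.02% and 5.06% of all genes. Tet3, a demethylating dioxygenase, was 2.26-fold higher. The calls of Cdkn2b and Kcnq1ot1 ended without KO3 library 1, without library 2 those of Kcnq1ot1 and Ndn (adjusted p = 0.074 to 0.21), which left 2 imprinted genes called, without KO2 library 1 that of Kcnq1ot1 (0.065) and without KO2 library 2 that of Cdkn2b (0.059).

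The small heat shock gene Cryab (alpha B crystallin) was at 14.1, 14.2, 10.2 and 12.6 CPM in KO2 and 100.2 and 79.7 CPM in KO3 (log2 difference 2.72 ± 0.38), the largest of 4 rises among 17 immediate early and heat shock genes. Jun, at 42.8, 38.8, 41.4 and 40.9 CPM in KO2 and 86.5 and 81.1 CPM in KO3, passed narrowly (adjusted p = 0.049) and was lost without any 1 of the 6 libraries (0.069 to 0.23). Pmaip1 (NOXA) was at 8.88, 10.7, 5.57 and 3.54 CPM in KO2 and 31.4 and 31.7 CPM in KO3, and it was the 1 gene called of 19 of the p53 response. Its call ended without either KO3 library. Of the 17 early and heat shock genes 1 was called without either KO3 library and 2 without KO2 library 2 or 3.

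Of 31 nuclear genes of oxidative phosphorylation 0 were higher and 3 lower, beside 9.02% and 5.06% of all genes. The 3 were genes of complex III: Uqcrc2 (1.59-fold), Uqcrq (1.58-fold) and Cyc1 (1.53-fold). Of the 31 differences only 5 were positive. Both KO3 libraries lay below all KO2 libraries in 15 of the 31, beside 16.3% of all genes, and above all of them in 0. Relative to their neighbours on the chromosome 1 of the 31 was called lower, and the calls of Uqcrq and Cyc1 ended. Of 9 mitochondrially encoded genes 3 were higher, 2 in edgeR or DESeq2 or without KO2 library 2, and 0 without either KO3 library. mt-Nd6, the 1 protein gene of the light strand, was at 8.2, 8.28, 10.9 and 10.98 CPM in KO2 and 28.02 and 26.3 CPM in KO3 and is uncertain, as genes of the heavy strand lie opposite to it. mt-Co1 (1.58-fold) shares 100% of its 3′ windows with other genes. The list medians were -0.21 and 0.55. Of 28 glycolysis and hypoxia genes 3 were higher and 5 lower: the stress gene Ndrg1 was at 16.2, 17.03, 16.5 and 17.7 CPM in KO2 and 75.1 and 59.8 CPM in KO3, Hk2 and Pfkfb3 were 1.64-fold and 1.74-fold higher, and the lactate exporter Slc16a3 was at 184, 210.3, 183 and 187 CPM in KO2 and 81.9 and 85.8 CPM in KO3. Ddit4 was lower in KO3 but split KO2 (597, 478, 213 and 198 CPM, against 161 and 172 CPM). Of 30 ribosomal protein genes 1, Rplp0, was called (1.5-fold lower, with 33.9% of its 3′ windows shared with other genes), and the median of the list was -0.32. Small falls were common in this list, as only 1 of the 30 differences was positive. Both KO3 libraries lay below all KO2 libraries in 20 of the 30, beside 16.3% of all genes, and above all of them in 1. Relative to their neighbours on the chromosome the calls of Ddit4, Hk2, Pfkfb3, Slc16a3 and Rplp0 ended as well. Without KO3 library 1 the calls of Cyc1, Ddit4, Pfkfb3, Rplp0, Slc16a3, mt-Co1 and mt-Nd6 ended (adjusted p = 0.064 to 0.23, and for Rplp0 a difference of -0.56, under 1.5-fold), and without library 2 those of Ddit4, Pfkfb3, Slc16a3, mt-Co1 and mt-Nd6 (0.055 to 0.17). Leaving out KO2 library 1 ended Cyc1, Ddit4, Pfkfb3 and Rplp0, KO2 library 2 ended Ddit4, Pfkfb3 and Slc16a3, and KO2 library 3 ended Rplp0. The number of glycolysis genes called was 2 without either KO3 library, 4 without KO2 library 1 and 3 without KO2 library 2.

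The difference also varied along the genome. Over genes with at least 10 CPM the median difference was 0.37 on chromosome 8, 0.24 on chromosome 6, 0.21 on chromosome 4 and 0.19 on chromosomes 1, 2 and 13. On the other autosomes and the X chromosome it ran from -0.14 to 0.06. These 6 chromosomes, a set chosen after the medians were seen, held 800 of the 1531 genes called higher (52.3%) and 33.9% of the genes tested. Against WT, it was KO3 that was raised on chromosomes 6 and 8, and KO2 that was lowered on chromosomes 2, 4 and 13, in every library of the line. Chromosome 8 gave 0.35 in 2iL, 0.39 at day 1 and 0.35 at day 3. DNA copy number was not measured.

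Some stretches within chromosomes stood out further, chosen after their values were seen. On chromosome 14, from Esco2 to Tdrd3 (65819038 to 87545504 in GRCm38), 47 genes had a median difference of 0.98 (a ratio of 1.97), and 42 of them were called higher in KO3. Against WT the median of these genes was -0.81 to -0.85 in the 4 KO2 libraries and 0.21 and 0.23 in the KO3 libraries. The 15 genes before it were low against WT in both lines (-0.66 to -0.87 in KO2, -0.77 and -0.88 in KO3), and the 15 genes after it were near WT in both (-0.12 to 0.085 in KO2, -0.029 and -0.13 in KO3). The median of the stretch was of like size in 2iL (0.81), at day 1 (0.91) and at day 3 (0.85). On chromosome 17 the 40 genes from Yipf4 to Fbxo11 (74489493 to 88065291) had a median of 0.78, with 28 called higher. Against WT the KO2 libraries stood at -0.83 to -0.97 there and the KO3 libraries at -0.080 and -0.092. The 15 genes just before them, from Gm9320 to Slc30a6 (70853767 to 74424221), had a median of -0.54, with 7 called lower, and against WT KO2 stood at 0.31 to 0.65 and KO3 at -0.20 and -0.092. The 15 genes before Gm9320 had a median of 0.65, and against WT KO2 stood at -0.94 to -1.06 and KO3 at -0.31 and -0.37. The low region of KO2 thus did not begin at Yipf4. The 15 genes after Fbxo11 were low against WT in both lines (-0.51 to -0.71 in KO2, -0.28 and -0.66 in KO3). Epas1 and Epcam lie in the stretch from Yipf4 to Fbxo11. Smaller shifts covered 29 genes of chromosome 6 (Mob1a to Aplf, 0.53) and 70 genes of chromosome 8 (Tk2 to Ddx19b, 0.51).

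**Figure D5:**
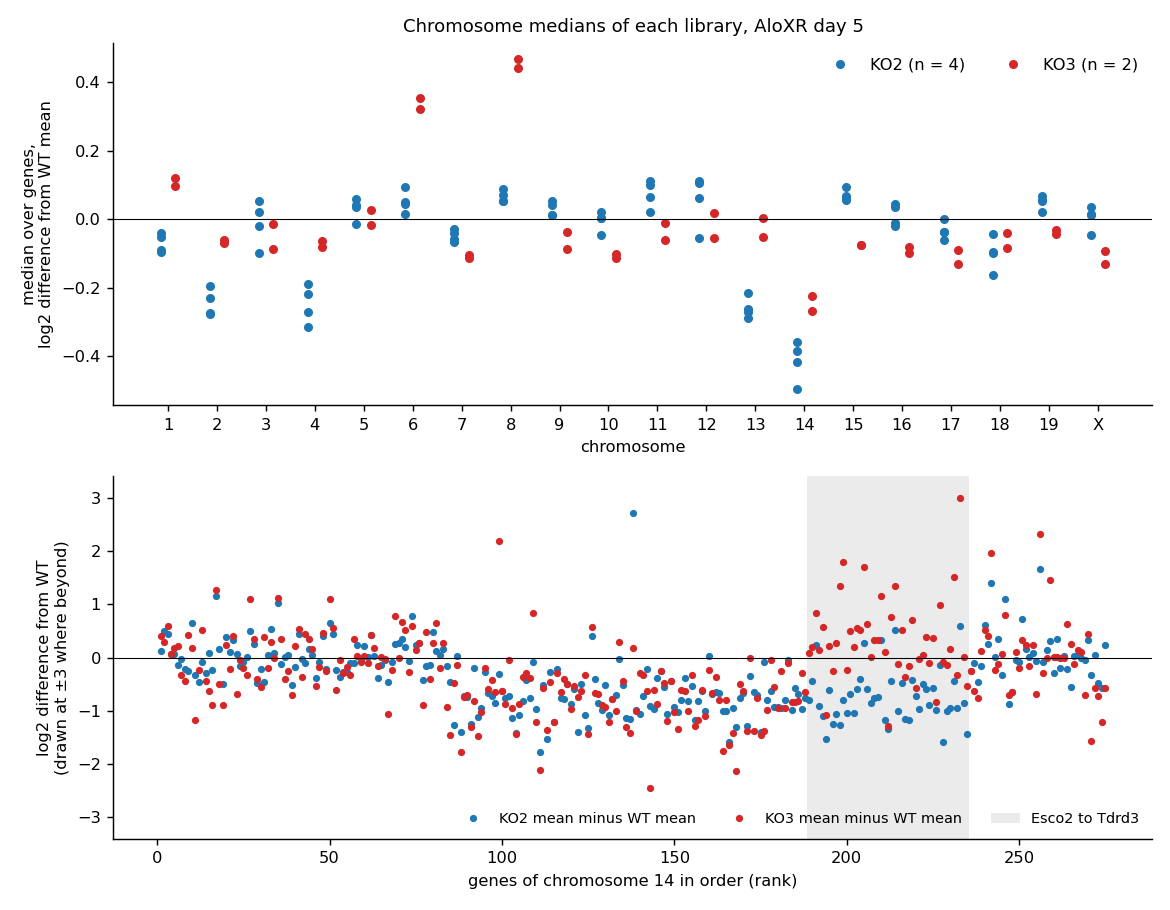
Top, median log2 difference of each depleted library from the WT mean at AloXR day 5 for each chromosome (KO2 blue, KO3 red; genes with at least 10 CPM). Bottom, difference of the line means from WT for the genes of chromosome 14 in order; in the shaded stretch from Esco2 to Tdrd3 the KO2 points centre on about -0.8 and the KO3 points near 0.2.

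Once each gene was set against the median of its 25 neighbours on either side, 1107 genes were higher (6.52%) and 826 lower (4.87%; 11.4% together). Of the primitive endoderm genes 14 were called in that comparison, without Foxa2, Cubn and Lrp2, and of the cholesterol genes 18, with Srebf2 (0.61, adjusted p = 0.0086) in place of Fdft1 (0.52).

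Most genes called at day 5 had the same direction at day 3 and fewer did in 2iL. Of the 2389 genes called at day 5, 90.4% had the same direction at day 3, beside 69% of all genes, where 670 were called in the same direction and 1 in the opposite one (7.69% of all genes were called at day 3, 5.58% higher and 2.11% lower). At day 1, 84.3% had the same direction, beside 66.8% of all genes (815 called the same way and 28 the other way; 8.19% of all genes were called higher and 6.79% lower). In 2iL, 60.1% had the same direction, beside 53.8% of all genes (268 and 51; 7.24% of all genes). The libraries of the 4 times are separate samples, but those of the earlier times also gave the fit its estimate of the spread.

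Tested as a difference of differences, 1329 genes (7.83%) differed between the lines by another amount at day 5 than in 2iL, with KO3 gaining in 5.50% of all genes and losing in 2.33%. Against day 1 there were 524 such genes (3.09%; 2.02% gaining and 1.07% losing) and against day 3 28 (0.165%; 0.124% gaining and 0.0413% losing). The last count was 14 in edgeR, 15, 12, 1 and 7 without KO2 library 1 or 2 or KO3 library 1 or 2, and the first 2 counts were 591 and 196 without KO3 library 1 and 669 and 193 without library 2. Among the few against day 3 was Tnc (tenascin C, a matrix protein), at 1.14, 1.66, 3.34 and 4.25 CPM in KO2 and 12.3 and 8.38 CPM in KO3 at day 5, with a line difference of -0.75 at day 3 and 1.73 at day 5. Cttnbp2 went from -0.38 to 1.91 and Urah from 0.26 to -1.80. Against 2iL, Penk (proenkephalin) and Mef2b became lower in KO3 (-2.13 and -2.55), and against day 1 the line difference of Stmn2 moved from 1.36 to -0.74. The day 5 call of Mef2b ended without KO3 library 2 (adjusted p = 0.12). Penk was at 27.3, 20.4, 18.7 and 14.7 CPM in KO2 and 4.35 and 4.08 CPM in KO3 at day 5 and under 3 CPM on average in both lines in 2iL and at day 1.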

How the data were processed

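Gene expression was measured by 3′ mRNA sequencing (QuantSeq, which reads 1 tag per transcript near its 3′ end) in 41 libraries of 12 groups, of which the 6 of KO2 and KO3 at AloXR day 5 were compared. The authors deposited expression in CPM (counts scaled to the reads of each library) of 55487 genes, per the file headers, and STAR 2.7.6a, featureCounts 2.0.1 (Subread) and GRCm38 are named in the submitters' processing notes. Strand use in counting is not given in the sources used here. Reads were recovered from the CPM steps: all 766190 values above 0 came out whole within 0.01 reads (100%), with 3424064 to 5736053 reads per library.

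log2(CPM + 1) was fitted with limma 3.58.1 (R 4.3.3) over all 41 libraries with 12 group means, a trended prior and robust estimation (29 residual degrees of freedom), for the 16967 genes that reached 1 CPM in 3 or more libraries. A pseudocount of 1 CPM understates the change of low genes. A gene was called where p, adjusted by the method of Benjamini and Hochberg, was under 0.05 and the lines differed 1.5-fold or more. The labels do not say that libraries of a group came from separate cultures, and p-values then measure only the spread between these libraries, which may be technical. Library numbers follow the order of deposit and pair nothing. Tested on simulated counts of these 16967 genes, the day 5 comparison called 11 of 67 genes given a 1.5-fold change, 56 of 67 given a 2-fold one and 66 of 66 given a 4-fold one, beside 12 that were left unchanged. The changed genes all had at least 10 CPM in KO2, and all genes and libraries were given 1 common spread. These rates therefore do not describe low genes, such as the 434 called higher with a KO2 mean below 1 CPM, or the unequal spread among the real KO2 libraries.

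Alternatives were edgeR 4.0.16 and DESeq2 1.42.0 on the recovered reads, quantile and TMM scaling, pseudocounts of 0.5 and 5 CPM, other filters, only the depleted libraries, leaving out each library, and centring each gene on its 25 neighbours to either side; for the lists, counts under the scalings, in DESeq2 and without each library were added after the data were seen. Named genes were Esrrb and Esrra, the 12 largest rises and falls among called genes with at least 5 CPM in the higher line, up to 4 called members per list, reference genes and the 5 largest changes of the line difference. Further members of the lists and Epcam were added after their values were seen. Of the 23 cholesterol genes counted, 3 are not reported here by name. The members and lists were chosen with earlier results of these data known. Promoter sequences came from RefSeq (GRCm38.p6). Shared 3′ sequence was counted as the share of 50-base windows in the last 300 bases of a gene that occur in another gene. Intervals cover counting error only.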

Additional observations from a re-analysis of the deposited data

Results flagged for a closer look

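In 10 of the 158 genes given with values, 1 KO2 library at AloXR day 5 lay far from the other 3 by Dixon's criterion, which chance meets in about 1 in 20 groups. KO2 library 4 was the high one for Srgn (0.18 CPM), Afp (0.35 CPM), Glipr1 (0.89 CPM) and Pou5f1 (16.1 CPM). KO2 library 2 was the high one for Ttr (0.24 CPM) and Slc16a3 (210.3 CPM). KO2 library 1 was the high one for Rhox12 (0.23 CPM) and B2m (157 CPM) and the low one for Tm7sf2 (17.3 CPM) and Anxa1 (1.14 CPM). For Srgn, Afp, Ttr and Rhox12 the other 3 libraries had no read, so that any read in 1 library met the criterion. The rate of 1 in 20 does not hold for such genes.

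In 82 of the 158 genes given with values the difference between KO3 and KO2 at day 5 was another one than at an earlier time. The test was limma's difference of differences with Benjamini-Hochberg adjustment. Some of the 158 genes were named because their line difference changed most. Of all genes tested 7.83% were called against 2iL, 3.09% against day 1 and 0.165% against day 3. The values that follow are the change of the log2 difference, positive where KO3 gained on KO2. They share the day 5 libraries with the comparison described above and are not independent of it. Where a gene was called against several earlier times, the change with the lowest adjusted p is given.

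Against 2iL, the primitive endoderm genes gave Lama1 4.12, Srgn 3.74, Gata6 3.33, Sox17 3.09, Foxq1 3.00, Col4a1 2.68, Col4a2 2.56, Pdgfra 1.65, Ttr 1.61, P4ha2 1.57, Lamb1 1.49 and Lamc1 1.03. The largest rises gave Rhox6 5.30, Rhox9 4.97, Pga5 4.45, Adamts9 3.68, Tmem140 3.38, Pcdh17 3.22 and Epas1 3.10. The largest falls gave Xlr4b -2.55, Ptgis -2.47, Myh6 -2.24, Ms4a4d -1.85 and Nxf3 -1.34.

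The cholesterol genes gave Hsd17b7 1.34, Ebp 1.2, Mvd 1.12, Mvk 1.11 and Stard4 0.81 against 2iL. Trophoblast and germ cell genes gave Tfap2c 2.55, Lgals3 2.12, Krt19 1.18, Prdm1 1.67, Rhox12 1.57 and Sycp3 -2.10. Pluripotency genes gave Klf4 2.76, Lef1 2.59, Nr5a2 2.22, Sox2 1.74, Dppa4 1.31, Car14 -1.21 and Tdgf1 -1.01. Signalling, adhesion and neural genes gave Anxa1 3.77, Snai2 2.32, Vim 2.24, Fosl1 1.85, Ncam1 1.55 and Cyp26b1 1.43. Antigen presentation genes gave H2-K1 -1.38, H2-D1 -1.23 and B2m -1.02. Among the remaining genes the values were Cdkn1c 4.39, Ndrg1 3.09, H19 2.67, Cttnbp2 2.47, Tet3 1.73, mt-Nd6 1.71, Cdkn2a 1.25, Uqcrq -0.61, Penk -2.13 and Mef2b -2.55.

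Against day 1, Gata4 gave 1.43, and the cholesterol genes gave Hmgcs1 1.99, Nsdhl 1.32 and Cyp51 1.09. Sct and other genes with a gain of KO3 gave Sct 3.97, Glipr1 3.72, Krt7 2.88, Tnc 2.37, Msx1 2.18, Rpl10l 2.08, Bmp2 1.87, Wnt3 1.79, Nefm 1.77, Cryab 1.75 and Dazl 1.38. A loss of KO3 on KO2 was seen in Pla2g1b -2.79, Esrrb -2.78, Urah -2.45, Stmn2 -2.11 and Klf5 -0.91. Against day 3, the value was Msmo1 1.30.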

How the results depend on the processing

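Of the 158 genes given with values, 132 were called. Of these, 66 kept the call in each of the 17 alternatives that tested them. With the fits that left out a library set aside, 92 did. Some alternatives did not test every gene. Leaving out a library gave 1083 to 2304 genes called (643 to 1477 higher, 440 to 827 lower), and a pseudocount of 5 CPM gave 1463 (935 higher, 528 lower). The line difference changed against 2iL in 591 to 1381 genes without a library, against day 1 in 193 to 514 (257 in edgeR), and against day 3 in 1 to 38 (14 in edgeR, 59 with 5 CPM added, 1 with only the depleted libraries fitted). Members called without a library numbered 10 to 16 for primitive endoderm, 6 to 9 for trophoblast, 2 to 7 for epithelial adhesion, 3 to 5 for mesendoderm, 1 to 4 for formative, 1 to 4 for primed epiblast, 1 to 6 for neuroectoderm, 5 to 8 for germline, 2 to 4 for Rhox, 2 to 6 for imprinted, 2 to 5 for Nodal, 1 to 5 for BMP, 1 to 5 for retinoic acid, 1 to 6 for LIF, 2 to 6 for mesenchymal, 2 to 8 for glycolysis, 1 to 4 for heat shock and 1 to 5 for interferon genes. Centring on neighbours gave 5 epithelial, 3 glycolysis and 2 heat shock genes, TMM 2 heat shock genes and DESeq2 3 mesenchymal genes. With a minimum of 50 CPM the chromosome medians were 0.15 (1), -0.11 (5), 0.19 (6), -0.12 (7), -0.13 (9), -0.15 (10), -0.10 (17) and -0.069 (19). Signs turned only in genes that were not called. Without a library, Esrrb ran from -0.44 to 0.99, Esrra from -0.21 to 0.079, Afp from -0.11 to 0.43, Cdx2 from -0.019 to 0.21 and Idi1 from -0.011 to 0.28. After quantile normalization Cdx2 was at -0.0017 and Idi1 at -0.0054. The causes were not tested. No paired analysis was possible because the labels give no replicate numbers. With 2 KO3 libraries, leaving 1 out leaves a lone library that is assumed to vary like the other groups, and 3 reads (0.531 to 0.725 CPM) limit what can be seen of low genes.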

Other observations

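Gene families that no list covered, chosen after their values were seen, gave these counts. Beside them stand 9.02% of all genes higher and 5.06% lower in KO3 at AloXR day 5. Of 28 measured Hox genes, which pattern the body axis, 6 were higher and 0 lower there, with a median difference of 0.26. Of 20 H2 genes of the major histocompatibility complex 7 were lower and 0 higher, with a median of -0.76. Of 9 laminin chains 4 were higher, and of 4 type IV collagen chains 2 were. The medians of these families in 2iL were 0.56 for Hox, -0.41 for H2, -0.03 for laminin and -0.07 for type IV collagen genes.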
